A study of Rattus norvegicus with 8 samples.

Results

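Apc, Wtip, Jag1, Taok1 and Taok2 are regulators of the Hippo, Wnt and Notch pathways that carried regions of changed N6-methyladenosine (m6A) signal in rat vascular smooth muscle cells. They were chosen as every region assigned to one of these 5 gene names in the authors' lists of differentially methylated RNA sites. These names had 7 of the 1967 listed regions, in 5 of 1726 genes. Membership in the lists itself depended on the measured change, so the folds and p-values of these regions are a description of why they are listed, and no test is made from them.

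The study compared primary rat vascular smooth muscle cells overexpressing Mettl3, the enzyme of the complex that methylates adenosine in messenger RNA, with control cells carrying a vector. The assay was MeRIP-seq: RNA fragments bound by an anti-m6A antibody are sequenced, and a portion without pulldown serves as input. The titles gave 8 libraries in 4 groups of 2, an immunoprecipitate (IP) and an input for each condition. The sources used here do not say how Mettl3 was delivered, which strain, sex and age the animals had, or whether paired libraries of 1 group stem from different cultures, so p-values may reflect technical spread only.

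The Hippo pathway is a kinase cascade in which TAO kinases and other inputs activate the MST and LATS kinases, which keep the coactivators YAP and TAZ away from the TEAD transcription factors. The Wnt pathway stabilises beta-catenin when ligands occupy Frizzled and LRP receptors, and a destruction complex containing APC and AXIN degrades beta-catenin in their absence. The Notch pathway runs between touching cells, where a ligand such as Jagged1 opens the receptor to cleavage and frees its intracellular domain. In the arterial wall Jagged1 and Notch signalling are known for their part in the differentiation of smooth muscle.

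The 5 genes divided by direction. Both TAO kinases had higher m6A IP signal in Mettl3-overexpressing cells, and Apc, Wtip and Jag1 had lower signal. Of the 7 regions, 6 had an adjusted p under 0.05 in the authors' deposited table, 4 lower and 2 higher, while 14.0% of all listed regions did. At an adjusted p under 0.01 these numbers were 4 of 7 regions and 5.69% of all listed regions. The share was 13.0% among all lower regions and 20.2% among all higher regions of the authors' deposited table. Nothing is read from the members' count against these shares, because the genes were chosen from the same comparison. The values are the authors' comparison of conditions and hold no value per library, so no replicate spread can be given, and the depth of each library is unknown. The sources used here do not say if the input entered the folds, so more or less m6A and more or less of the transcript cannot be told apart.

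**Figure D1:**
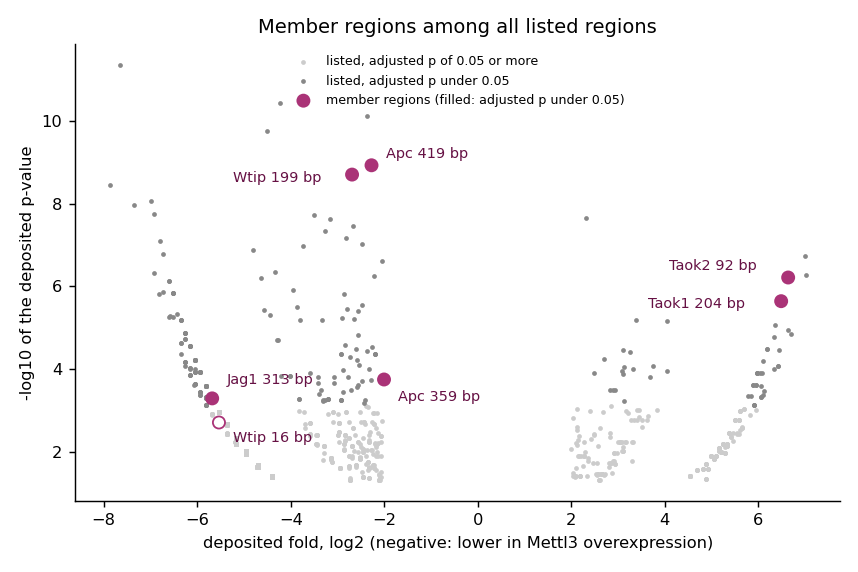
All 1967 listed regions by the deposited fold on a log2 scale (x axis, negative where the signal was lower in Mettl3-overexpressing cells) and the −log10 of the deposited p-value (y axis), with the 7 member regions in purple, filled where the adjusted p was under 0.05. Taok1 and Taok2 lie at the far right with log2 folds of 6.49 and 6.64, the Apc regions and the longer Wtip region lie at small negative folds with −log10 p of up to 8.93, and Jag1 and the shorter Wtip region lie at large negative folds with low −log10 p.

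The folds rest on very different numbers of reads. Most deposited folds have a single decimal, as they would if 0.1 were added to the means of both conditions before division and one mean were 0. Solved on that form, the means fall on multiples of 0.503 for vector and 0.123 for overexpression, which were read as 1 read over the 2 libraries of a condition. A vector read thus weighed 4.09 times an overexpression read in the folds. Numbers of reads obtained this way are called implied reads: they are inferred from the folds and are not values of the tables. Whether the weights match the depth of the libraries was not tested.

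**Figure D2:**
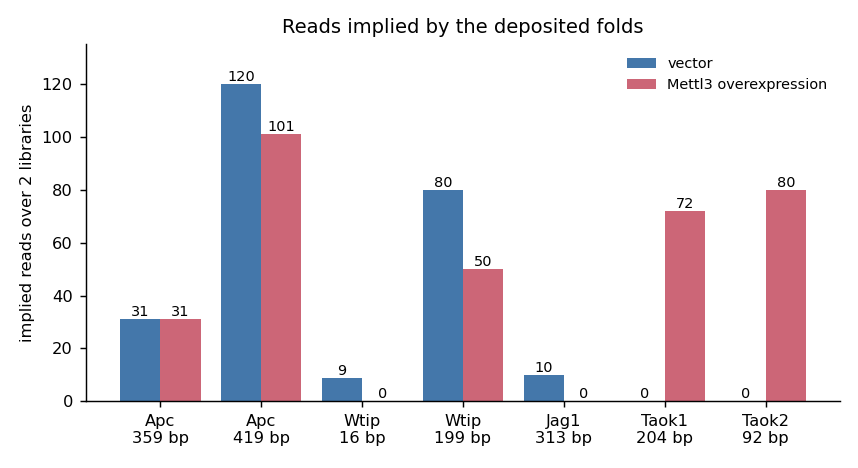
Implied reads over the 2 IP libraries of each condition (y axis) for the 7 member regions (x axis), with vector in blue and Mettl3 overexpression in red and the number above each bar. The TAO kinases have 72 and 80 overexpression reads against 0, Apc has nearly as many overexpression as vector reads, and Jag1 and the shorter Wtip region have 10 and 9 vector reads against 0.

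Apc, the scaffold of the beta-catenin destruction complex, had 2 lower regions in transcript NM_012499. The authors' deposited table places the first at chromosome 18, bases 26817222 to 26817580 (359 bp), in a build that is not stated. The same row of the authors' deposited table gives a fold of 4.02 (p = 0.00018, adjusted p = 0.0192). That fold was the smallest of all 1710 lower regions in the authors' deposited table. The implied means were 15.61 for vector and 3.81 for overexpression, which correspond to about 31 reads in each condition. Without the weights the ratio of implied reads was 1. Whether the weights match the depth of the libraries was not tested, so this ratio does not say whether the signal changed.

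The second Apc region lay 621 bases further along the chromosome than the first, from 26818202 to 26818620 (419 bp), in the authors' deposited table. With a p of 1.18e-09 it ranked 5 by p among all listed regions of the authors' deposited table (adjusted p = 1.42e-06). The fold of 4.84 was again small in the authors' deposited table, where it ranked 1659 of 1710 lower regions. Implied means of 60.45 and 12.42 correspond to about 120 vector reads and 101 overexpression reads, a ratio of reads of 1.19. This was the largest number of vector reads among the 295 lower regions with implied reads in both conditions, whose median was 11. The ratio of reads over those 295 regions had a median of 1.78, above both Apc ratios, and the first Apc region had the smallest. The ratio restates the deposited fold without its weights, so this order follows from the small Apc folds. By p the first Apc region ranked 158 among all listed regions of the authors' deposited table, far behind the second.

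Wtip, a LIM-domain protein of the Ajuba family that binds LATS kinases and restrains Hippo signalling, had 2 lower regions in transcript ENSRNOT00000037519. The longer one covers bases 91112902 to 91113100 of chromosome 1 (199 bp), and its fold in the authors' deposited table was 6.45. The p of 1.97e-09 ranked 6, directly after the second Apc region, with an adjusted p of 2.18e-06 per the authors' deposited table. The implied reads were 80 in vector and 50 in overexpression, a ratio of 1.6. This ratio restates the deposited fold without its weights, so it is no second measure of the change in Wtip.

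The shorter Wtip region ended 161 bases before the longer one begins and covered 16 bp, from 91112725 to 91112740, in the authors' deposited table. It did not pass: the authors' deposited table has a fold of 46.4 (p = 0.00198, adjusted p = 0.0787). It rested on 9 implied vector reads against an implied 0. With 3 overexpression reads in place of 0, the fold was 12.3 with the weights kept and 3 by reads alone. Within the 376 bases that the Wtip regions span, the region with the larger fold was the one with fewer reads and the larger p.

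The promoter of Wtip is shown because it carries the recognition letters of the TEAD factors, the DNA-binding end of the pathway that Wtip regulates. RefSeq promoters of build GRCr8, from 250 bases before to 50 bases after the gene start, were found for all 5 genes. They were searched on both strands for GGAATG (TEAD), TGGGAA (RBPJ, the DNA-binding factor of Notch) and ATCAAAG or TTCAAAG (TCF/LEF, the factors of Wnt). The Wtip promoter lies on the minus strand at chr1:95902035-95902334 of GRCr8, and capitals mark GGAATG or its reverse complement CATTCC.
Wtip: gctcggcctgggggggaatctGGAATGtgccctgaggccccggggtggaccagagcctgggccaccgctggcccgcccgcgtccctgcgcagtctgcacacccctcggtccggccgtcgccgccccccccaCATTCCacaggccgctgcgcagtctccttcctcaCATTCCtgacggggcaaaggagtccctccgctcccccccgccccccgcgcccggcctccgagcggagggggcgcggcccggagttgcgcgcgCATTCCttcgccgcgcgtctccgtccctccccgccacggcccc
It held 4 such hexamers, which did not overlap, and no match to the other motifs. Of 27457 rat promoters of the same length, 13.9% held at least 1 of these hexamers and 4 promoters, that of Wtip included, held at least 4. The promoters of the other 4 genes held none of the motifs. The motifs were picked after the sequences had been seen, so these shares are background and are not read as a result about Wtip. A match is a run of letters and was not tested as a binding site, and the deposited m6A regions are in another build than GRCr8, so their distance from this promoter cannot be given.

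Jag1, the ligand that presents to Notch receptors on neighbouring cells, had 1 lower region in transcript NM_019147. Per the authors' deposited table it covers bases 136558688 to 136559000 of chromosome 3 (313 bp). The authors' deposited table lists a fold of 51.3 (p = 0.000517, adjusted p = 0.036). The implied support was 10 vector reads against 0 overexpression reads. Setting 3 overexpression reads for that 0 gave a fold of 13.6 with the weights kept, and 3.33 by reads alone.

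Jag1 stood at the smallest number of reads with which a lower region against an implied 0 passed. None of the 82 such regions with 9 implied vector reads passed, 38 of the 47 with 10 did, and all 28 with 11 did. At 10 reads the p-values in the authors' deposited table ranged from 0.000517 to 0.00128. Jag1 was 1 of 38 regions at the smallest of these values (equal within a relative 1e-06), and the other 9 had larger ones. Axin2, a scaffold of the beta-catenin destruction complex, also had 10 implied vector reads against 0. Its fold of 51.2 was close to that of Jag1, but the authors' deposited table gives p = 0.00122 and adjusted p = 0.0613. Equal numbers of implied reads thus went with different p-values, and how the reads were divided between the 2 libraries of a condition was not tested.

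**Figure D3:**
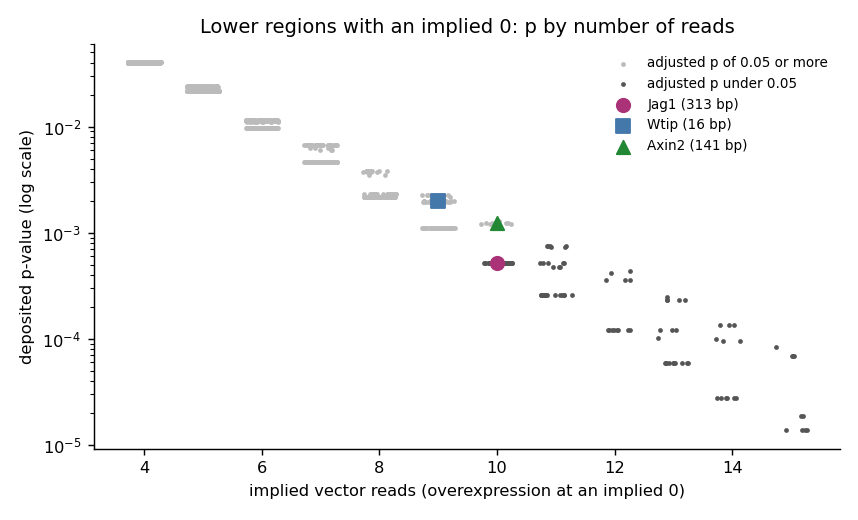
Deposited p-value (y axis, log scale) against implied vector reads (x axis, from 4 to 15, points spread sideways for legibility) for lower regions with an implied 0 in overexpression, dark where the adjusted p was under 0.05. Jag1 (purple circle) and Axin2 (green triangle) both have 10 reads but p-values of 0.000517 and 0.00122, and the shorter Wtip region (blue square) has 9 reads and a p of 0.00198.

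Taok1 and Taok2 encode TAO kinases, which phosphorylate MST kinases of the Hippo cascade and also activate the MAP kinase kinases of the p38 branch. Taok2 (transcript NM_022702) had a higher region of 92 bp and Taok1 (transcript NM_173327) one of 204 bp in the authors' deposited table. They cover bases 205295106 to 205295197 of chromosome 1 and bases 62296958 to 62297161 of chromosome 10. The Taok2 fold of 99.4 ranked 4 and the Taok1 fold of 89.6 ranked 6 among the 257 higher regions of the authors' deposited table. Their p-values of 6.12e-07 and 2.29e-06 ranked 28 and 40 among all listed regions of the authors' deposited table. The implied overexpression reads were 80 for Taok2 and 72 for Taok1, and both had an implied 0 in vector. With 3 vector reads in place of 0, the fold with weights kept was 6.52 for Taok2 and 5.87 for Taok1. By reads alone it was 26.7 and 24, which is larger by construction, because a vector read weighed 4.09 times an overexpression read. Neither TAO kinase had a lower region in the authors' deposited table, and Taok3, the remaining member of the family, had no listed region.

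**Figure D4:**
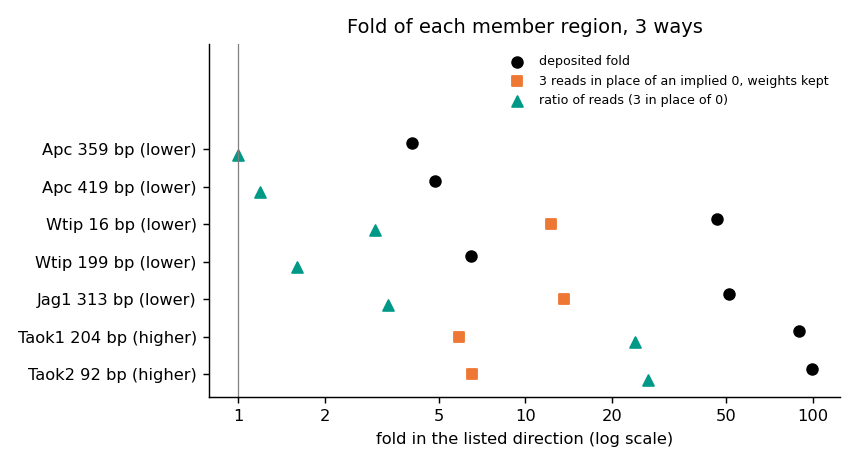
Fold of each member region in its listed direction (x axis, log scale) as deposited (black circles), with an implied 0 replaced by 3 reads, weights kept (orange squares, for the 4 regions with an implied 0), and as the ratio of implied reads with 3 in place of 0 (green triangles). The deposited folds span 4.02 to 99.4. By reads alone the lower regions lie between 1 and 3.33 and the TAO kinases at 24 and 26.7. Leaving out the weights lowers the lower regions and raises the higher ones by construction, so this gap is not read as a contrast. With 3 reads in place of 0 and weights kept, the TAO kinases lie at 5.87 and 6.52, below Jag1 at 13.6.

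The order of the folds between the higher and the lower regions depended on what stood in place of an implied 0 and on the weights. As deposited, and by reads alone, Taok2 and Taok1 had the largest folds of the 7 regions. Once an implied 0 was replaced by 3 reads, weights kept, Jag1 (13.6) and the shorter Wtip region (12.3) came before Taok2 (6.52). The longer Wtip region (6.45) then lay between Taok2 and Taok1 (5.87).

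Regions nearest to the members in fold differed from them widely in p, except where both rested on the same few reads. In the authors' deposited table the fold nearest to that of the second Apc region was 4.84 for Kpna6, with a p of 0.00908 from 15 and 12 implied reads. The fold nearest to that of the longer Wtip region was 6.44 for Ranbp6 in the authors' deposited table, with a p of 0.0142 from 9 and 5 implied reads. For the first Apc region the nearest was Nudt4, from 34 and 33 implied reads, for which the authors' deposited table gives a fold of 4.11 (p = 2.49e-07). Jag1 shared both fold and p, within the same tolerance, with 31 regions of other named genes, of which Anxa7 is the first by name. The shorter Wtip region did so with 12, among them Abca1. Taok2 shared its fold and its 80 implied reads with Keap1, but the p of Keap1 was 1.16e-05 against 6.12e-07 for Taok2 in the authors' deposited table. Tsc22d4 was nearest to Taok1 in the authors' deposited table, at a fold of 87.1 (p = 3.41e-05).

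The rest of each pathway was read from lists of its genes. As background to the counts per list, 259 of all 1726 genes with a listed region had a passing one. Lower regions made up 86.9% of all listed regions. Nothing is read from the lists' counts against these shares, because the lists hold the members. The Hippo list had 35 genes, of which 8 had a listed region and 27 had none. Passing regions lay in 3 of its genes, Wtip (lower) and Taok1 and Taok2 (higher), all of them members. The other 5 Hippo genes had 1 lower region each, and none passed. They were Wwc1, which activates LATS kinases, Stk4, the MST1 kinase, Sav1, its scaffold, Mob1b, a LATS cofactor, and Tead4, a DNA-binding factor of the pathway. Their folds in the authors' deposited table were 46.4 for Wwc1, 41.3 for Tead4, 31.2 for Sav1, 31.1 for Mob1b and 4.65 for Stk4. Per the authors' deposited table the adjusted p was 0.0787 for Wwc1, Tead4 and Stk4 and 0.159 for Sav1 and Mob1b. Stk4 resembled Apc in having similar reads in both conditions, 28 in vector and 24 in overexpression. That follows from its small deposited fold and the weights. The remaining 4 genes had 6 to 9 implied vector reads against 0.

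The Wnt list had 58 genes, of which 8 had a listed region, all lower, and 2 passed. Besides Apc the passing gene was Daam1, a formin of the planar polarity branch, whose 72 bp region appears in the authors' deposited table with a fold of 14.1 (adjusted p = 0.0377). Behind it stand 13 implied vector reads against 3. Daam1 had another 2 lower regions that did not pass. The other Wnt genes with a region were Axin2, the co-receptors Lrp5 and Lrp6, the receptors Fzd3 and Ror2, and the transcription factor Tcf7. Adjusted p-values of these regions ran from 0.0613 for Axin2 to 0.248 for Tcf7 in the authors' deposited table. Lrp6 had a 208 bp region with 13 implied vector reads against 6 and a 5 bp region with 7 against 0. The median fold of the 12 Wnt regions was 23.6 in the authors' deposited table, and that of the 10 regions outside Apc was 26.15, against 26.2 over all listed regions.

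The Notch list had 39 genes, of which 8 had a listed region and 1, Jag1, passed. Notch1 was the 1 gene with a higher region, and Notch2 and Notch3 had lower ones. These are receptors of the same pathway. For Notch1 the authors' deposited table gives a fold of 39.1 (adjusted p = 0.159), which implies 31 overexpression reads against 0. Notch2 had 8 implied vector reads against 3, and Notch3, named here after its values were seen, had 4 against 0. Neither passed, with adjusted p of 0.191 for Notch2 and 0.248 for Notch3 in the authors' deposited table. The other genes were Adam17, a protease of receptor cleavage, Mib1, the ubiquitin ligase that activates ligands such as Jag1, Numb, an inhibitor of Notch, and Spen, a corepressor. Each had lower regions with 4 to 8 implied vector reads against 0, and none passed.

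The p38 and JNK list, the MAP kinase branch downstream of the TAO kinases with related kinases, had 16 genes, of which 2 had a region. Map3k5, a stress-activated kinase also known as ASK1, had a lower passing region of 61 bp, listed in the authors' deposited table with a fold of 61.5 (adjusted p = 0.0137). The fold implies 12 vector reads against 0. Map2k3, which TAO kinases phosphorylate, had 2 lower regions of 37 and 42 bp that did not pass, each with 4 implied vector reads against 0. The authors' deposited table places them on chromosome 10, at bases 44868442 to 44868478 and 46977202 to 46977243. Both have a fold of 21.1 and the same p in the authors' deposited table. Whether positions this far apart belong to 1 gene was not tested. Thus the kinases Taok1 and Taok2 had higher regions while the listed regions of this branch were lower. Over all listed regions 86.9% were lower, so a lower region is the common case in these tables.

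**Figure D5:**
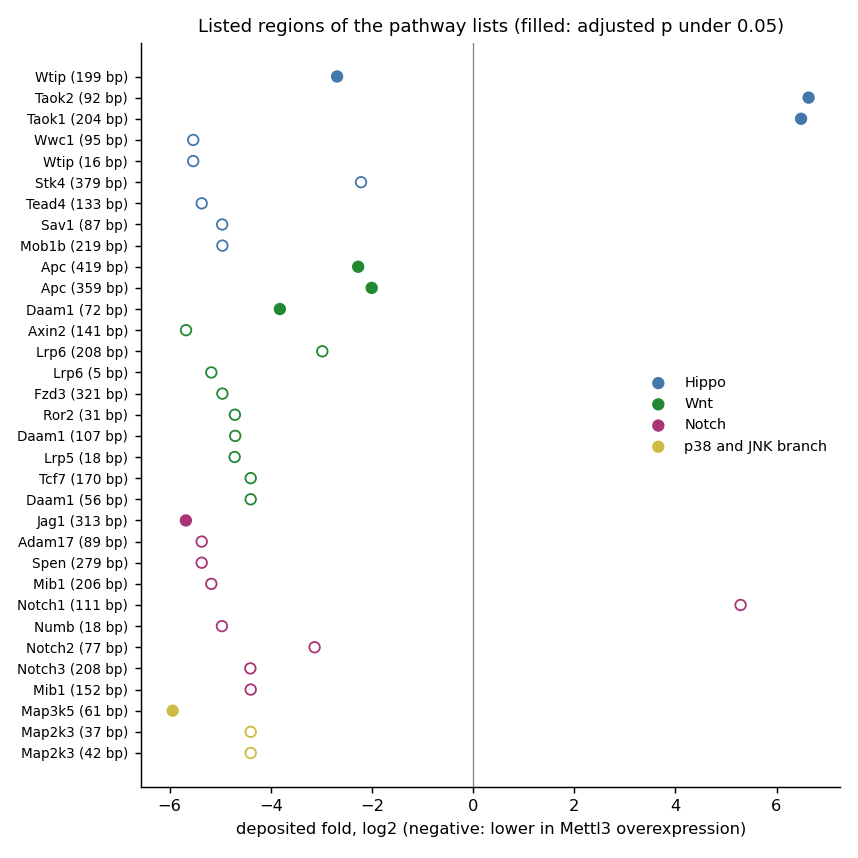
Deposited fold on a log2 scale (x axis, negative where lower in Mettl3-overexpressing cells) of every listed region of the Hippo, Wnt, Notch and p38 and JNK lists (y axis, gene and length of the region), filled where the adjusted p was under 0.05. Higher regions lie in Taok1, Taok2 and Notch1, the last of which did not pass, and all other regions of these lists are lower.

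By the pathway annotation that the authors give beside each region, 17 regions in 15 genes belonged to Hippo signalling and all were lower. The TAO kinases are not in that annotation, which places them under MAPK signalling. Passing Hippo genes by annotation were Apc, Wtip, the cyclin gene Ccnd1 and Bmp7, a ligand of the BMP family. For Ccnd1 the authors' deposited table gives a fold of 126.8 (adjusted p = 7.28e-06), which implies 25 vector reads against 0. The Bmp7 fold in the authors' deposited table was 61.6 (adjusted p = 0.0349), which implies 12 vector reads against 0. Wnt signalling by annotation had 20 regions in 16 genes, all lower, and 5 genes passed. These were Apc, Ccnd1, Daam1, its paralogue Daam2 and the acetyltransferase gene Crebbp. Daam2 is in the authors' deposited table with a fold of 16.3 (adjusted p = 0.0158), which implies 15 vector reads against 3. Notch signalling by annotation had 10 genes with a region, 9 lower and 1 higher, of which Jag1 and Crebbp passed. Over all listed regions 86.9% were lower, and 259 of all 1726 genes with a listed region passed. Lower regions are thus the common case, and their number in an annotation is not read as a trait of that pathway.

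The cell identity could not be checked from levels, because the tables list only regions that differed. Of 11 markers of smooth muscle, endothelial, leukocyte and fibroblast cells, 1 had a listed region, the smooth muscle gene Cnn1.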

How the data were processed

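RNA fragments were immunoprecipitated with an anti-m6A antibody, a part being set aside as input, and made into stranded libraries, per the labels' protocols. Per the submitters' processing notes, reads were trimmed with Trimmomatic 0.36. The sources used here do not name the aligner, genome build, peak settings or test; region names begin with diffreps. Per the file headers, the authors deposited a fold as a ratio with its direction, a p-value and an FDR (an adjusted p-value) per region. The deposited score equals the −log10 of the p-value. Region length was recomputed from the deposited coordinates, and starts are counted from 1. A region passed at an adjusted p under 0.05.

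The members, gene lists and tests were chosen with earlier results of these data known. Named genes were every member region, list genes with a passing region, up to 6 other genes per list by smallest p, and the region of the same table nearest to each member in log2 fold and then p. The use of the authors' pathway annotation was added after the data were seen. Implied reads were solved from each fold with pandas 2.3.3 and numpy 2.4.6, taking the smallest pair of means whose reads were whole within 0.015 plus 0.004 per read. At least 4 vector or 18 overexpression reads were required. The larger the number of reads, the looser that solution, and at large numbers the allowed distance takes in any mean. Among the members, 31, 50, 72, 80 and 101 overexpression reads and 80 and 120 vector reads are therefore approximate. The same holds for large numbers of reads in other genes. The multiples of 0.503 and 0.123 were found from means under 6 only. The libraries' depth is unknown, so no interval was computed.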

Additional observations from a re-analysis of the deposited data

How the results depend on the processing

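Of the 7 member regions, 6 passed at an adjusted p under 0.05, while 14.0% of all listed regions did. At an adjusted p under 0.01 it was 4, against 5.69% of all listed regions, and 7 passed at the unadjusted p of the tables. Counted as genes, 5 passed at an adjusted p under 0.05, where 259 of all 1726 genes with a listed region did. Leaving out folds with a single decimal, which removes every region with an implied 0 by construction, left 3, the Apc regions and the longer Wtip region. Replacing an implied 0 by 3 reads, weights kept, gave folds of 12.3 for the shorter Wtip region, 13.6 for Jag1, 5.87 for Taok1 and 6.52 for Taok2. The ratios of implied reads alone were 1 and 1.19 for the Apc regions, 3 and 1.6 for the shorter and the longer Wtip region, 3.33 for Jag1, 24 for Taok1 and 26.7 for Taok2. At a ratio of 1, the implied reads of the first Apc region gave no direction without the weights. Whether the weights match the depth of the libraries was not tested, so this does not say whether its signal changed. A reversal could hardly occur by construction, because no listed fold was under 4 and a vector read weighed 4.09 times an overexpression read. The absence of reversals is therefore no sign of robustness. Over all 1726 genes with a listed region, 105 passed at an adjusted p under 0.01. At that threshold the passing list genes numbered 3 for Hippo, 1 for Wnt, 0 for Notch and 0 for the p38 and JNK list. The main counts were 3, 2, 1 and 1, and at the unadjusted p they were 8, 8, 8 and 2. With the authors' pathway annotation in place of the lists, chosen after seeing the data, they were 4 for Hippo, 5 for Wnt and 2 for Notch. Beyond the construction of each setting the cause was not tested. No paired analysis was possible because only the comparison of conditions is tabulated, without values of single libraries. Leaving out a replicate, another normalization and a filter on low values were not run for that reason.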

Other observations

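Taok1 and Taok2 were the 2 genes with a passing higher region among the 32 genes that the authors annotate with MAPK signalling, and 5 genes of that annotation had a passing lower region. Without the TAO kinases the annotation held 33 regions, 30 lower and 3 higher, and no higher one passed. Over all listed regions 86.9% were lower, and 20.2% of higher and 13.0% of lower regions passed. With only 3 higher regions, the lack of a passing one is not read as a contrast to the TAO kinases. The split was not tested, since the TAO kinases were chosen from the same comparison.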
